A study of Rattus norvegicus with 8 samples.

Results

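The heat shock proteins and the DNAJ cochaperones are the chaperone families examined here, in RNA from the *substantia nigra* (SN) of rats that carried either human α-synuclein (αSyn) or an empty vector. Members were all array probes whose RefSeq accession belongs to a rat gene named as a heat shock protein of the Hspa, Hspb, Hspd, Hspe, Hsph or Hsp90 families or as a DNAJ protein of type A, B or C. The rule itself uses names and no measured values. The rule gave 66 genes on 85 probes, of 16678 named genes on 21229 probes, and 45598 probes in all. Adult female Sprague Dawley rats, aged 3 months at surgery, received a unilateral injection into the SN of an adeno-associated virus of serotype AAV6. In the AAV-αSyn group the virus carried wild-type human αSyn (AAV6-αSyn, 5.2e+10 vector genomes per µl), and in the AAV-Null group it was the null control (AAV6-Null, 5.3e+09 vector genomes per µl). The titre and the transgene therefore differed together between the groups and cannot be told apart. The promoter of the transgene is not given in the sources used here. The injected side was dissected 20 weeks after surgery, and each of the 8 samples (4 per group) was measured on an Agilent array of its own after labelling with the dye Cy3. The microdissected SN holds neurons, glia and vessels, so fewer cells of a type and less RNA per cell cannot be told apart.

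Molecular chaperones bind unfolded or misfolded proteins and let them fold, pass a membrane or be degraded. HSP70 does this in cycles of ATP use. A DNAJ protein delivers the client and triggers ATP hydrolysis, and a nucleotide exchange factor such as HSP110 then releases it, while HSP90 acts later on folding intermediates and small heat shock proteins hold clients without ATP. In the test tube, HSP70 with a DNAJB protein and HSP110 can take apart αSyn fibrils, which is why these genes are of interest in Parkinson's disease, where αSyn aggregates in dopaminergic neurons. When unfolded proteins build up, heat shock factor 1 (HSF1) binds heat shock elements in the promoters of many of these genes and raises their transcription.

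Promoter windows were available for 53 of the 66 members, from RefSeq on the rat assembly GRCr8, each reaching from 250 bases before to 50 bases after the start of transcription. A heat shock element of alternating units was searched for on both strands, as GAANNTTCNNGAA or TTCNNGAANNTTC, where N is any base. It was present in 5 of the 53 windows (9.43%), against 202 of 27457 windows of all genes (0.736%). All 5 belong to the 11 members with a window that were listed as heat inducible (45.5%). They are *Hspa8*, *Hsph1*, *Hspd1*, *Hspe1* and *Dnaja1*. The bases before the start are shown for 3 of them as examples, with the matching elements in capitals. *Hspa8* lies on the plus strand at chr8:50080264-50080513, *Hsph1* on the plus strand at chr12:10427118-10427367 and *Hspe1* on the plus strand at chr9:64084077-64084326.
Hspa8: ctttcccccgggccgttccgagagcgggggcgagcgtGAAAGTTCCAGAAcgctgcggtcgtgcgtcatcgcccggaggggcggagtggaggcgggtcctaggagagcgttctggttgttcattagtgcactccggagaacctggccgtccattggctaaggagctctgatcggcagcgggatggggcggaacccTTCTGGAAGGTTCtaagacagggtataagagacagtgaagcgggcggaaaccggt
Hsph1: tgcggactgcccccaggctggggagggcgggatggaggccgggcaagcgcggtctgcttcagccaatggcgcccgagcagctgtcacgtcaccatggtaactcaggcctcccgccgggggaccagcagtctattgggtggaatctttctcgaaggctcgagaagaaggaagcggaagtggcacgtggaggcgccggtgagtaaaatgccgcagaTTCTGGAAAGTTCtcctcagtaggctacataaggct
Hspe1: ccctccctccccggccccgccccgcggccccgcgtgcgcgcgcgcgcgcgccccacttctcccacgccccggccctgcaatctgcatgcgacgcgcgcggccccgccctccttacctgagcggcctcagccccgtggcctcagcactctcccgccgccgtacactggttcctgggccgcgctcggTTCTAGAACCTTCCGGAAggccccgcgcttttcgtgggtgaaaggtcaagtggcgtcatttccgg
In *Hspa8*, which encodes the constitutive cytosolic HSP70, 1 element began 213 bases and the other 55 bases before the start. In *Hsph1*, an HSP110, the element began 36 bases before the start. *Hspe1* (HSP10) and *Hspd1* (HSP60), which together form the mitochondrial chaperonin, stand head to head on opposite strands, and their windows share 211 bases. The run of 18 bases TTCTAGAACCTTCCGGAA in *Hspe1*, which holds a pair of overlapping elements, is therefore the same DNA as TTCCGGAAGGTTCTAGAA in *Hspd1*. In *Dnaja1* the element GAACTTTCCAGAA lay after the start, within the window. A CCAAT box (CCAAT or ATTGG) was found in 39.6% of the members' windows and 37.7% of all windows, and TATAAA or TTTATA in 13.2% and 14.3%. These matches describe letters only.

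The 8 arrays lay on 1 slide, and 74.8% to 77.5% of the 58717 spots of an array were called well above background, with no spot saturated. Values are log2 intensities, quantile normalized between arrays, and a gene is represented by its brightest probe. Each probe has its own response, so the brightest probe of a gene or class was used only to choose what is shown, and no level is read from one gene against another. Of the 66 members, 61 were above background on at least 1 array and were tested, and all 61 were above background on all 8 arrays. *Dnajb7*, *Dnajb8*, *Dnajc5b*, *Dnajc5g* and *Hspb7* were above background on no array. No probe was named for *Dnajb1*, *Dnajc1*, *Dnajc13*, *Hspa12b* or *Hspa1b*, so the DNAJB protein best known for αSyn disaggregation and 1 of the inducible HSP70 genes were not analysed here.

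Among the 61 members no gene passed the Benjamini–Hochberg adjustment of limma's test over all 33853 probes tested, where 0.0148% of all probes and 0.022% of all genes did so. At an unadjusted p under 0.05, 1 member was higher in the AAV-αSyn group, *Dnajc22*, and 0 members were lower. Over all 13648 genes, 5.51% had such a p, 3.46% higher and 2.05% lower, and nothing is read from a count of 1 among 61 members. The AAV-αSyn and AAV-Null arrays did not overlap for 2 members, *Dnajc22* and *Hspa4l*, both higher, where 4.2% of all genes did not overlap in either direction, 3% being higher and 1.19% lower. The log2 fold change was above 0 for 38 of the 61 members (62.3%) and for 56.0% of all genes. Its median was 0.03 over the members and 0.02 over all genes tested, and its median size, regardless of sign, was 0.0613 and 0.0856.

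**Figure D1:**
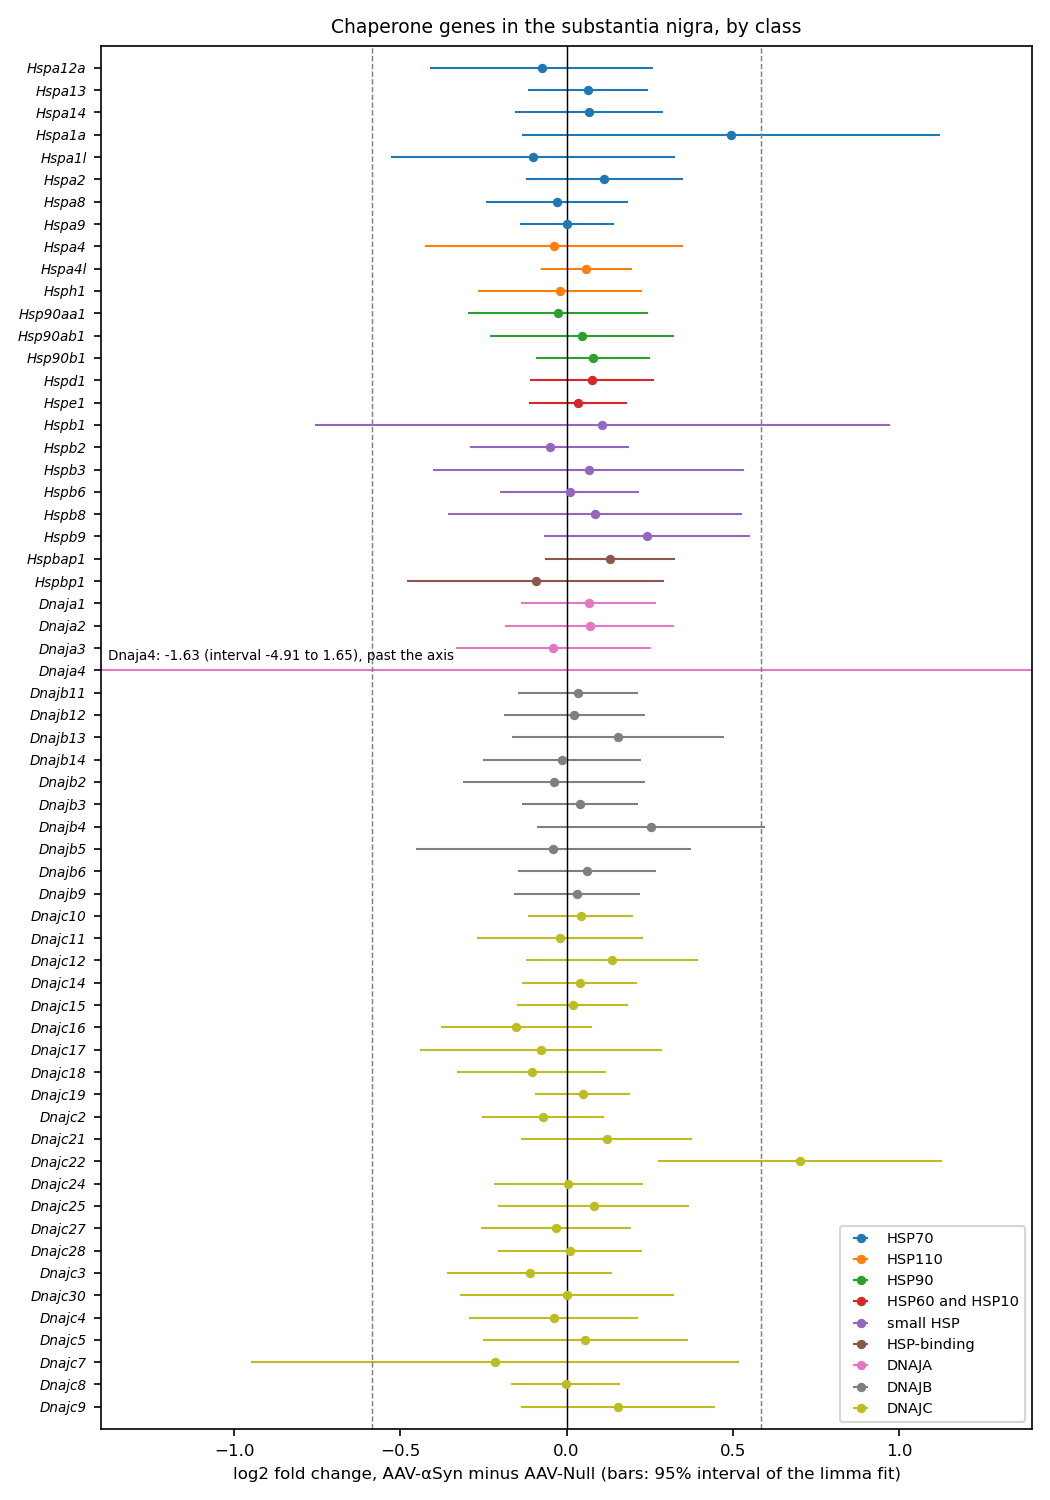
Log2 fold change (AAV-αSyn minus AAV-Null, horizontal axis) of the 61 members tested, coloured by chaperone class, with bars for the 95% interval of the limma fit and dashed lines at a 1.5-fold difference either way. *Dnajc22* alone has an interval that leaves out 0, and the estimate of *Dnaja4*, −1.63, lies beyond the axis.

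How small a difference these arrays could have shown can be read from the intervals. The 95% interval of the difference stayed within 1.5-fold in both directions for 55 of the 61 members (90.2%), against 78.1% of all genes, and within 1.2-fold for 22 members (36.1%), against 24.3%. The 6 members whose interval reached past 1.5-fold were *Hspa1a*, *Hspb1*, *Dnaja4*, *Dnajb4*, *Dnajc22* and *Dnajc7*. For the remaining members a difference above 1.5-fold in the dissected tissue lies outside the interval of the brightest probe. Intervals past this limit were found for a further probe of *Hspd1* (0.63-fold to 1.54-fold) and of *Dnajb13* (0.56-fold to 1.19-fold). A difference confined to few cells of the tissue would be diluted in these values.

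*Dnajc22* encodes a membrane-anchored DNAJ protein whose fly counterpart, wurst, takes part in clathrin-mediated endocytosis. In the order of the replicates, its log2 intensity was 7.99, 7.91, 7.56 and 7.91 in AAV-Null rats and 8.43, 8.67, 8.11 and 8.96 in AAV-αSyn rats. Every AAV-αSyn array was higher than every AAV-Null array, and AAV-Null replicate 3 was the lowest of all. The AAV-Null mean was 7.84 ± 0.19 (SD, n = 4) and the AAV-αSyn mean 8.54 ± 0.36 (SD, n = 4). The difference was 0.70 on the log2 scale (standard error 0.19), or 1.63-fold, with a 95% interval from 1.21-fold to 2.19-fold. Limma's test gave an unadjusted p of 0.00518 and an adjusted p of 0.643, and the two-sided exact permutation test gave 0.0286, the smallest that 4 arrays against 4 allow. The probe is printed as 2 spots on each array, which differed by an SD of at most 0.0754. *Dnajc22* stayed at an unadjusted p under 0.05 whichever array was left out, with a log2 fold change between 0.56 and 0.85.

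Marker genes of the cells of the SN and of its neighbours were read on the same arrays, and no list had a gene past the adjustment. The mean log2 intensity of 7 dopaminergic markers ran from 12.47 to 12.93 on the AAV-Null arrays and from 12.06 to 12.38 on the AAV-αSyn arrays, and 4 of the 7 were lower at an unadjusted p under 0.05. Of 6 serotonergic markers 2 were higher, with means from 6.45 to 8.31 and from 7.74 to 8.67. *Tph2*, which encodes the serotonin-synthesising enzyme of the raphe, was 8.32, 8.12, 10.61 and 8.99 on the AAV-Null arrays and 11.16, 11.51, 10.59 and 12.20 on the AAV-αSyn arrays. Within the AAV-αSyn group *Tph2* and *Dnajc22* had the same order of arrays, replicates 4, 2, 1 and 3 from high to low, whereas AAV-Null replicate 3 had the highest *Tph2* and the lowest *Dnajc22* of its group. Of 2 noradrenergic markers tested *Dbh* was above background on 0 AAV-Null and 3 AAV-αSyn arrays, and *Slc6a2*, with a log2 fold change of −0.39, on 2 AAV-Null and 1 AAV-αSyn arrays, while 1 of 4 thalamic markers was lower. None of the 8 astrocyte, 8 microglial, 8 oligodendrocyte, 7 mural, 7 ependymal and 6 blood markers tested had an unadjusted p under 0.05, while 1 of 7 endothelial markers was higher and 1 of 8 pan-neuronal markers was lower. The part of cell composition in the value of *Dnajc22* was not tested.

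The 8 HSP70 genes tested had a median log2 fold change of 0.03. *Hspa8* was 17.59, 17.61 and 17.75 for AAV-Null replicates 1, 3 and 4, and 17.48, 17.67, 17.63 and 17.71 on the AAV-αSyn arrays. Its spot on AAV-Null replicate 2 was marked as an outlier by the scanner software, so 7 arrays were fitted. Their log2 difference was −0.03 (standard error 0.091), and the 3 other *Hspa8* probes, measured on all arrays, gave 0.02 to 0.03. *Hspa9*, the HSP70 of mitochondria (mortalin), was among the least variable members, at 13.36 ± 0.032 (SD, n = 4) with the null vector and 13.36 ± 0.027 (SD, n = 4) with αSyn. The other genes of the class, apart from *Hspa1a*, had log2 fold changes between −0.10 for *Hspa1l* and 0.11 for *Hspa2*.

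*Hspa1a*, the stress-inducible HSP70, was 9.95, 10.31, 10.02 and 10.34 on the AAV-Null arrays and 10.45, 11.52, 10.24 and 10.39 on the AAV-αSyn arrays. AAV-αSyn replicate 2 stood above every other array, and AAV-αSyn replicate 3 fell within the AAV-Null range. A second probe showed the same high array, with 6.04, 6.45, 6.63 and 5.92 against 6.37, 8.05, 6.46 and 6.58. The log2 fold changes were 0.49 (standard error 0.27) and 0.60 (standard error 0.38), with limma's unadjusted p at 0.107 and 0.146, neither past the threshold. Without AAV-αSyn replicate 2 the first probe gave 0.20, and the larger part of the difference rested on that animal. *Hspa1a* and *Hspa1b* are near-identical copies, and what the *Hspa1a* probes measure may include both.

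The HSP110 genes, whose products exchange the nucleotide of HSP70, had a median of −0.02. *Hspa4l* was 11.92, 11.87, 11.87 and 11.89 on the AAV-Null arrays and 11.93, 11.98, 11.94 and 11.94 on the AAV-αSyn arrays. The groups did not overlap, and the exact permutation test gave its smallest p of 0.0286. The difference was nevertheless 0.06 (standard error 0.060), or 1.04-fold, with limma's unadjusted p at 0.348, since limma sets the very small spread of this gene against the spread of all genes. *Hspa4* was 13.49, 13.51, 13.40 and 13.33 against 12.87, 13.67, 13.56 and 13.50, where AAV-αSyn replicate 1 was lower than every other array. *Hsph1* was 10.56, 10.63, 10.86 and 10.73 against 10.45, 10.83, 10.68 and 10.73, and differed by −0.02 (standard error 0.11). Its highest array was in the AAV-Null group and its lowest in the AAV-αSyn group.

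For HSP90 the median was 0.05. *Hsp90aa1*, the inducible cytosolic form, was 17.11, 17.16, 17.09 and 17.16 on the AAV-Null arrays and 16.75, 17.19, 17.21 and 17.26 on the AAV-αSyn arrays. The last 3 of these were above every AAV-Null array, and replicate 1 was below them all, so the difference was −0.03 (standard error 0.12) with all arrays and 0.09 without that replicate. A second *Hsp90aa1* probe did not show the low array. It was 15.82, 15.74, 15.63 and 15.90 against 15.79, 15.90, 15.78 and 15.90, a difference of 0.07 (standard error 0.081). *Hsp90ab1*, the constitutive form, was 16.28, 16.13, 16.10 and 15.85 against 15.89, 16.20, 16.26 and 16.21, so the highest and the lowest array were both AAV-Null. The difference was 0.05 (standard error 0.12), and that of *Hsp90b1*, the HSP90 of the endoplasmic reticulum (ER), was 0.08 (standard error 0.074).

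The mitochondrial chaperonin genes *Hspd1* and *Hspe1*, which share their promoter DNA, were measured in every animal. *Hspd1* was 14.27, 14.29, 14.17 and 14.42 on the AAV-Null arrays and 14.27, 14.44, 14.33 and 14.42 on the AAV-αSyn arrays, a difference of 0.08 (standard error 0.081). *Hspe1* was 14.63, 14.57, 14.54 and 14.57 against 14.67, 14.60, 14.55 and 14.64, a difference of 0.03 (standard error 0.064). The groups overlapped in both, and 2 further *Hspd1* probes gave −0.04 and −0.02, while the second *Hspe1* probe gave 0.09 (standard error 0.075).

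Of the 7 small heat shock protein genes 6 were tested, and 5 of these had a log2 fold change above 0, with a median of 0.08. None had an unadjusted p under 0.05. *Hspb1* (HSP27), which binds actin filaments and is made by reactive astrocytes, was 12, 11.52, 11.89 and 10.46 on the AAV-Null arrays and 11.93, 11.99, 10.91 and 11.48 on the AAV-αSyn arrays. Its 10 spots per array differed by an SD of at most 0.0723. That SD does not cover labelling or differences between arrays. *Hspb8*, which works with BAG3 in selective autophagy, was 9.38, 9.01, 9.45 and 8.58 against 9.10, 9.34, 9.04 and 9.29. Both genes were lowest on AAV-Null replicate 4 and, within the AAV-αSyn group, on replicate 3. Of 8 astrocyte markers 5 were lowest among the AAV-Null arrays on replicate 4 and 0 were lowest among the AAV-αSyn arrays on replicate 3, and their mean log2 intensity ran from 12.80 to 13.27 and from 12.95 to 13.18. *Gfap* was 11.96, 11.53, 11.76 and 10.25 on the AAV-Null arrays and 11.62, 11.85, 11.33 and 11.03 on the AAV-αSyn arrays, whereas *Slc1a3* had its highest value, 14.29, on AAV-Null replicate 4. The part of astrocytes in the values of *Hspb1* and *Hspb8* was not tested. Without AAV-Null replicate 4 the log2 fold change of *Hspb1* went from 0.11 to −0.23 and that of *Hspb8* from 0.09 to −0.09, neither past the threshold. *Hspb9* was 5.45, 5.64, 5.82 and 5.52 against 5.50, 5.99, 5.94 and 5.97. The last 3 values stood above all AAV-Null arrays, with a difference of 0.24 (standard error 0.13) and an unadjusted p of 0.11 by limma's test. *Hspb6* (HSP20) differed by 0.01, *Hspb2* by −0.05 and *Hspb3* by 0.07.

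The remaining pair of genes with a heat shock name encode proteins that bind these chaperones. *Hspbap1*, whose product binds HSPB1, was 10.54, 10.46, 10.28 and 10.56 on the AAV-Null arrays and 10.61, 10.60, 10.49 and 10.67 on the AAV-αSyn arrays, a difference of 0.13 (standard error 0.085). Of the AAV-αSyn arrays, 3 lay above every AAV-Null array and replicate 3 did not. *Hspbp1*, a nucleotide exchange factor of HSP70, differed by −0.09 (standard error 0.17), and its highest array, at 10.80, was AAV-Null replicate 3.

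**Figure D2:**
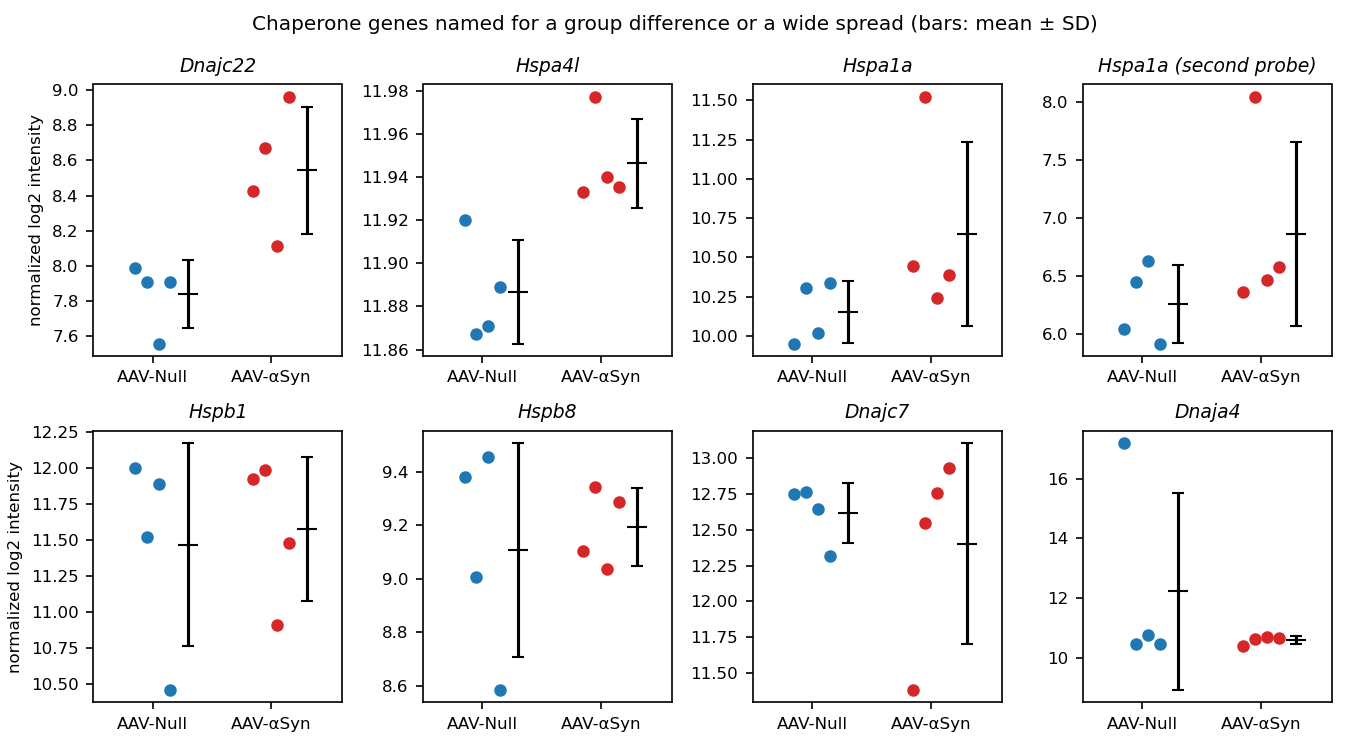
Normalized log2 intensity (vertical axis, a separate scale in each panel) of 7 members, with both probes of *Hspa1a*; points are arrays in the order of replicates 1 to 4 and bars are the mean ± SD of 4 arrays. The panels show the separation of *Dnajc22*, the narrow scale of *Hspa4l*, and the single arrays that set the spread of *Hspa1a*, *Dnajc7* and *Dnaja4*.

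DNAJ proteins choose the client and the place where HSP70 acts. The 4 DNAJA genes had a median of 0.01, with *Dnaja1* and *Dnaja2* of the cytosol both at 0.07 and *Dnaja3* of mitochondria at −0.04. *Dnaja1*, with its element just after the start, was 13.05, 13.12, 13.02 and 13.34 on the AAV-Null arrays and 13.18, 13.27, 13.13 and 13.21 on the AAV-αSyn arrays. The AAV-Null arrays held both its highest and its lowest value. *Dnaja4* had the most extreme value of any member, 17.18 on AAV-Null replicate 1, against 10.47 to 10.78 on the other AAV-Null arrays and 10.39 to 10.69 on the AAV-αSyn arrays. It rests on a single spot, with an intensity of 150856 there and of 1376 to 1815 elsewhere, and the software did not mark that spot as an outlier. Its log2 fold change was −1.63 (standard error 1.42) over the 8 arrays and 0.02 without AAV-Null replicate 1.

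Of the 12 DNAJB genes 10 were tested, with a median of 0.03. *Dnajb2* and *Dnajb6*, whose products keep aggregation-prone proteins soluble, differed by −0.04 (standard error 0.12) and 0.06 (standard error 0.090). For *Dnajb6* the arrays lay between 11.55 and 11.89 in the AAV-Null group and between 11.79 and 11.89 in the AAV-αSyn group, so the second range fell inside the first. *Dnajb4*, a cytosolic heat-inducible member, was 9.25, 9.08, 8.85 and 9.01 against 9.69, 9.13, 9.29 and 9.09, a difference of 0.25 (standard error 0.15) that was past no threshold. AAV-αSyn replicate 1 was the highest array for this gene, and the groups overlapped.

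The 23 DNAJC genes tested, of 25, include proteins tied to single organelles or complexes, and their median was 0.0057. *Dnajc5* encodes cysteine string protein α, which guards the release machinery on synaptic vesicles together with HSP70. It was 11.32, 11.35, 11.89 and 11.49 on the AAV-Null arrays and 11.45, 11.57, 11.55 and 11.69 on the AAV-αSyn arrays. AAV-Null replicate 3 was the highest and the other AAV-Null arrays were in the lower part of the range, with a difference of 0.06 (standard error 0.13). A second *Dnajc5* probe gave −0.05 (standard error 0.086). *Dnajc12*, which assists the aromatic amino acid hydroxylases including tyrosine hydroxylase, was 11.18, 11.14, 10.80 and 11.25 against 11.21, 11.17, 11.16 and 11.37. Its difference was 0.14 (standard error 0.11) where the log2 fold change of *Th* itself was −0.52 (standard error 0.096). *Dnajc8*, a factor of the spliceosome, differed by −0.0023. *Dnajc7*, a cochaperone that joins HSP70 and HSP90, was 12.75, 12.76, 12.65 and 12.32 against 11.38, 12.55, 12.75 and 12.93, where AAV-αSyn replicate 1 alone was below 12. The other 18 DNAJC genes tested had log2 fold changes between −0.15 (*Dnajc16*) and 0.16 (*Dnajc9*). *Dnajc12*, *Dnajc7*, *Hspa9* and the further genes given here with a log2 fold change alone were chosen after their values were seen.

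Members were also grouped by place and function. Of the 13 tested members listed as heat inducible (targets of HSF1), *Hspa4l* alone had groups that did not overlap. None had an unadjusted p under 0.05. Their median log2 fold change was 0.06, and the list includes the constitutive forms *Hspa8* and *Hsp90ab1*. Over all genes 4.2% did not overlap and 5.51% had such a p, so nothing is read from these counts. Among these, the genes with a heat shock element in the window lay between −0.03 and 0.08. The 9 members that can form the HSP70 disaggregase had a median of 0.06, and the median over these 9 of each array's deviation from the gene's mean ran from −0.08 to −0.03 on the AAV-Null arrays and from −0.0041 to 0.11 on the AAV-αSyn arrays. These array medians did not overlap. Of the 15 classes and groups of members, the DNAJB class, which shares 2 genes with the disaggregase, was the only other one without overlap. It ran from −0.09 to 0.0057 and from 0.01 to 0.04. The median log2 fold change over all genes tested was itself 0.02. No test was made of either separation, and like sets of other genes were not examined, so nothing is read from them. The 10 mitochondrial members had a median of 0.0067 and none beyond 0.08 in size, among them *Dnajc19*, a part of the motor that draws proteins into mitochondria, at 0.05. In the ER, where chaperones rise with the unfolded protein response, the 11 members tested had log2 fold changes between −0.15 (*Dnajc16*) and 0.08, with *Dnajb9* at 0.03, *Dnajb11* at 0.03 and *Dnajc3* at −0.11 (standard error 0.11).

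**Figure D3:**
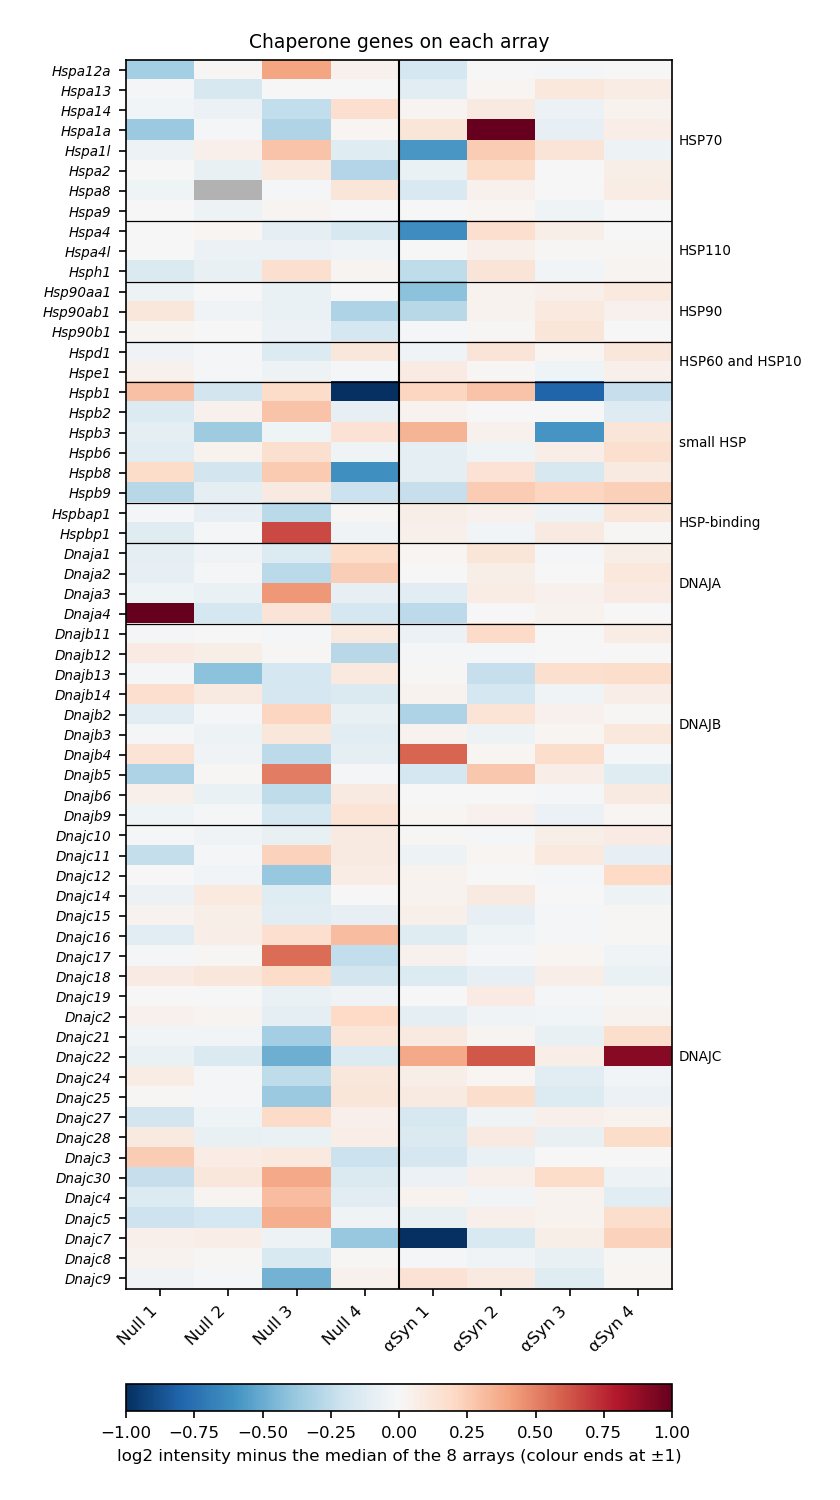
Log2 intensity of each tested member on each array, minus the gene's median over the 8 arrays, with members in rows by class and arrays in columns. Colour ends at ±1, which *Dnaja4*, *Hspb1*, *Hspa1a* and *Dnajc7* pass on 1 array each, and the grey cell is *Hspa8* on AAV-Null replicate 2.

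Most members had the wider spread between animals in the AAV-Null group. The SD was larger in the AAV-Null group for 44 of the 61 members (72.1%) and for 74.5% of all genes, and its median over members was 0.166 and 0.0957. Without AAV-Null replicate 3 the count was 33 members (54.1%), and 56.5% of all genes. On that array 5 members (8.20%) and 17.4% of all genes lay more than 0.5 from the mean of the other 7 arrays. AAV-αSyn replicate 1 had 5 such members too (8.20%, against 8.56% of all genes), of which *Dnajc7*, *Hspa1l* and *Hspa4* were low and *Dnajb4* was high. The remaining 1 was *Dnaja4*, which its value on AAV-Null replicate 1 places beyond this limit on all 8 arrays.

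**Figure D4:**
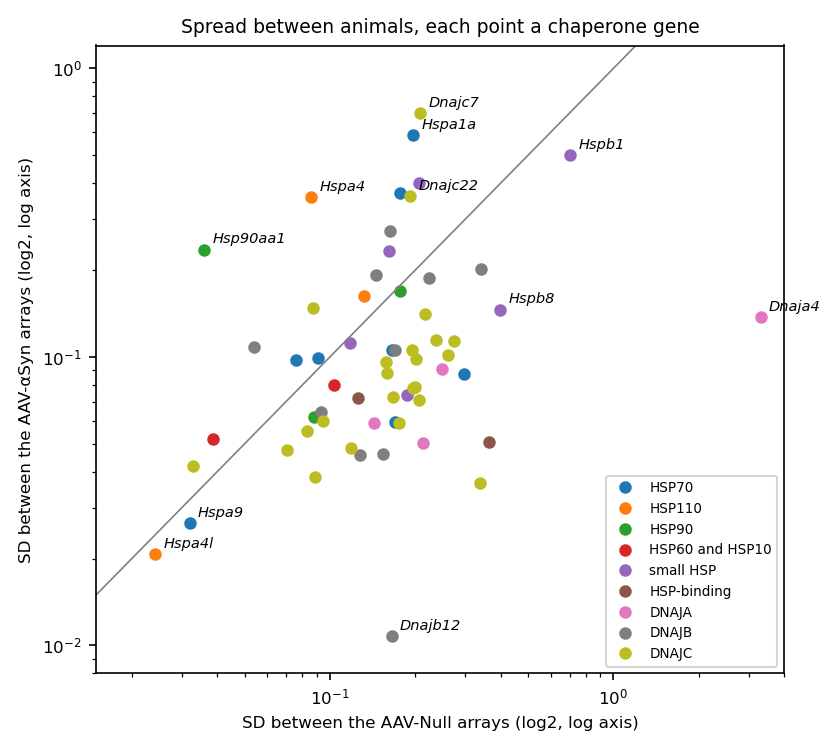
SD between the 4 AAV-Null arrays (horizontal) and between the 4 AAV-αSyn arrays (vertical) of each tested member, in log2 units on log axes, with a line of equal SD. Of the 61 points 44 lie below the line, and *Dnajc7*, *Hspa1a*, *Hspa4* and *Hsp90aa1* are among those above it. For *Hspa8* the AAV-Null SD is over 3 arrays.

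Where a gene had several tested probes, they often disagreed about so small a difference. Of 14 such members 9 had probes of both signs, and the widest gap was that of *Dnajb13*, with −0.29 and 0.15. For some of these genes RefSeq lists pseudogenes, with 33 for *Hspa8*, 23 for *Hsp90ab1* and 20 for *Hspd1*. The match of the probes to such copies was not examined, so signal from them cannot be set apart here.

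Chaperone genes outside these families were read from 6 further lists, of which 52 genes were tested. At an unadjusted p under 0.05, 3 were higher and 1 was lower in the AAV-αSyn group (7.69%, against 5.51% of all genes). The same 4 genes, and no others of the 52, had groups that did not overlap (exact permutation test, p = 0.0286 for each), where 4.2% of all genes did so, and none passed the adjustment. With counts this close to those of all genes, the 4 are given as values only. The count of 4 genes went to 2 without AAV-Null replicate 2 and to 1 without AAV-αSyn replicate 2, 3 or 4. It was 2 after cyclic loess scaling, and blocking on replicate number left 2 and blocking on slide column 1. *Fkbp5*, an immunophilin that binds HSP90 and is induced by glucocorticoids, was 11.40, 11.30, 10.77 and 10.87 on the AAV-Null arrays and 10.57, 10.64, 10.62 and 10.73 on the AAV-αSyn arrays. The AAV-αSyn arrays lay close together just below the lowest AAV-Null array, with a difference of −0.44 (standard error 0.15, adjusted p = 0.76 by limma's test). *Chordc1*, an HSP90 cochaperone, was 12.86, 13.01, 12.86 and 13.00 against 13.06, 13.25, 13.10 and 13.11, a difference of 0.20 (standard error 0.078). *Ptges3*, the HSP90 cochaperone p23, was 13.71, 13.67, 13.56 and 13.66 against 13.79, 13.88, 13.75 and 13.85, a difference of 0.17 (standard error 0.069). *Hyou1*, the HSP110 of the ER, was 13.03, 13.04, 12.96 and 12.94 against 13.10, 13.22, 13.11 and 13.19, a difference of 0.16 (standard error 0.066).

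None of the 9 TRiC chaperonin subunits, 4 prefoldin subunits, 8 nucleotide exchange factors of the BAG and GrpE kinds and 6 genes of heat shock factors and their binding proteins tested had an unadjusted p under 0.05. *Hsf1* itself differed by 0.0024 (standard error 0.11), *Bag3*, a target of HSF1 that recruits HSPB8, by 0.15 (standard error 0.11), *Stub1*, the ubiquitin ligase of HSP70 clients, by −0.0089 (standard error 0.086), and the small heat shock protein *Cryab* by 0.11 (standard error 0.14).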

How the data were processed

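RNA of the injected SN from 8 rats was measured on 1-colour Agilent arrays. The authors deposited scanner files with each spot's intensity, background-corrected by Feature Extraction (11.5.1.1 per the labels, 12.0.3.2 per the file headers), and a matrix of log2 values that they had quantile normalized. The labels give 4 arrays per group, where the methods state 3.

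From the scanner files, control spots and spots marked as outliers were left out. Probes with at least 0.5 of their spots well above background on at least 1 array were kept, taken to log2, quantile normalized and averaged over spots. AAV-αSyn was compared with AAV-Null by limma 3.58.1 (lmFit and eBayes, no trend, two-sided) in R 4.3.3, adjusted by Benjamini–Hochberg over all probes tested. Depth has no counterpart on arrays, where the number of arrays limits precision. The procedure was tested on simulated data.

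Genes were named from RefSeq accessions, and 2 genes of these families are not reported here. Members and lists were chosen with earlier results of these data known. Named genes are members past either threshold, the brightest and most changed of each class, and members picked for their known roles. The alternatives were other scalings (75th percentile, cyclic loess), normexp background correction (offset 50), other filters, the deposited matrix, a trend, array weights, blocks for replicate number and slide column, the mean of a gene's probes, and leaving out each array. Normexp used median signals, as mean signals were not used here.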

Additional observations from a re-analysis of the deposited data

Results flagged for a closer look

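In a group of 4 arrays, 1 array was set apart when its gap to the nearest of the others over the group's range exceeded the 95% critical value of Dixon's test. Chance sets apart about 1 in 20 groups. Of the 121 groups of 4 arrays of the members 13 were set apart (10.7%), against 6.60% of the 27290 groups of all genes tested. Those of the named members, 8 of 43, are given here. Some of these genes were named for the size of their difference, which a single extreme array can set.

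AAV-αSyn replicate 1 was low for *Hsp90aa1* (16.75, against 17.19 to 17.26 on the other arrays of its group, while the second probe was not apart, at 15.79 against 15.78 to 15.90), for *Hspb9* (5.50, against 5.94 to 5.99) and for *Dnaja4* (10.39, against 10.65 to 10.69). AAV-αSyn replicate 2 was high for *Hspa1a* (11.52, against 10.24 to 10.45) and, on a much smaller scale, for *Hspa4l* (11.98, against 11.93 to 11.94). AAV-αSyn replicate 4 was high for *Dnajb6* (11.89, against 11.79 to 11.81). AAV-Null replicate 1 was high for *Dnaja4* (17.18, against 10.47 to 10.78), and AAV-Null replicate 3 was low for *Dnajc8* (14.24, against 14.40 to 14.43).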

How the results depend on the processing

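Of the 22 named members, 229 of 242 values under another processing and 154 of 176 values with 1 array left out kept their direction and their side of an unadjusted p of 0.05. Sign changes, 11 in 8 genes and 21 in 12 genes, were all of values past no threshold. No member probe passed the adjustment under any of these settings, and each class median moved by less than its spread between arrays. The number of members with a log2 fold change above 0 ran from 34 to 43.

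*Dnajc22* kept an unadjusted p under 0.05 throughout. The count of members higher at this threshold went from 1 to 3 with array weights, through *Dnajc5* (0.20) and *Hspb9* (0.30), where 13.3% of all genes had such a p, and was 1 to 2 with 1 array left out (*Hspb9* joined, at 0.36, without AAV-αSyn replicate 1). The count of lower members, 0 with all arrays, was 0 to 1 with 1 array left out, through *Dnajc16* without AAV-Null replicate 1 and *Dnajc3* without AAV-Null replicate 4. Of the other chaperone genes, 4 were past this threshold in the main setting, 2 with cyclic loess, 2 with the replicate block, 1 with the slide column as a block, and 1 to 4 with 1 array left out. Over the whole series 5 probes passed the adjustment, 12 with array weights, 0 with the replicate block and 3 with the slide column as a block. The causes were not tested.

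Arrays with the same replicate number correlated in their deviations from the group means by 0.14, 0.27, 0.04 and −0.0022, and no label ties a number to a shared animal, litter or day, so the samples were not treated as pairs. Each number was also 1 row of the slide in both groups, so the replicate block is a block for the slide row as well, and the row and the number cannot be told apart. With the replicate number as a block *Dnajc22* remained the single member at an unadjusted p under 0.05 (log2 fold change 0.70, adjusted p = 0.587 by limma's test). Both arrays of replicates 1 and 2 correlated best with their own number, and those of replicates 3 and 4 did not.

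With 4 arrays per group, differences within the intervals given for *Hspa1a*, *Hspb1*, *Dnajb4* and *Dnajc7* could not be resolved, and a brightest probe on a single spot, as for 52 of the 61 members, has no check within its array.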
